A study of Mus musculus with 9 samples.

Results

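The 9 nuclear maternal-effect genes described here are Npm2, Smarca4, Bnc1, Trim24, Trim28, Ctcf, Mbd3l2, Yap1 and Bcas2, taken by symbol from the 24228 genes of the table. They were chosen by name with FPKM values and group differences of these libraries already known, so their fold changes and p-values are given as a description and not as independent evidence. RNA was sequenced from mouse oocytes that had completed growth but still held an intact germinal vesicle, the large nucleus of prophase arrest, in 3 groups of 3 libraries. In MG oocytes Mtor, the gene of the kinase that couples growth signals to translation, was conditionally deleted by Cre recombinase driven by the Gdf9 promoter. In MZ oocytes it was deleted by Cre driven by the Zp3 promoter. WT oocytes are labelled only as wild type. Both promoters are active in oocytes, and Gdf9-Cre acts earlier in follicle growth than Zp3-Cre. All 3 groups were of the C57BL/6 strain, and all females received 5 IU of PMSG, a gonadotropin that drives follicle growth, 46 h before collection. The age is 6 months in the sample labels and 23 days in the series design, and this was not resolved.

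A maternal-effect gene is transcribed in the growing oocyte, and its product is needed by the embryo after fertilization, when the embryo's own genome is still silent. The genes of this set act in the nucleus: they package or unpack chromatin, hold genes and transposable elements silent, fold the genome, or help to start embryonic transcription. A fully grown oocyte is itself nearly silent in transcription, so its mRNA pool is largely a store made during growth.

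The starts of 3 genes are shown because these genes had group differences without overlap between libraries: Mbd3l2, lowest in MG oocytes, Bcas2, lowest in MZ oocytes, and Bnc1, highest in MG oocytes. Npm2 also had such differences, with MZ oocytes highest, but matched no promoter entry. Each run is the 250 bases before the annotated start, 5′ to 3′ on the gene's strand, from RefSeq on GRCm38.p6. Capitals mark TATAA (TATA box), GGGCGG (GC box), TAATTG (an element bound by the oocyte factor Nobox) and CCAAT, each searched on both strands. The windows are chr9:18430365-18430614 on the plus strand for Mbd3l2, chr3:103171405-103171654 on the plus strand for Bcas2 and chr7:81992300-81992549 on the minus strand for Bnc1.
Mbd3l2: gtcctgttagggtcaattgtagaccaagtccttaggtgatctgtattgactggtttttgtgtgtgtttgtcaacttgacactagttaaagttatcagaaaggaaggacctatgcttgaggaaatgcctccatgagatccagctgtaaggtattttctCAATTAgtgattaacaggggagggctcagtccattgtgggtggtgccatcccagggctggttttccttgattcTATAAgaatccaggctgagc
Bcas2: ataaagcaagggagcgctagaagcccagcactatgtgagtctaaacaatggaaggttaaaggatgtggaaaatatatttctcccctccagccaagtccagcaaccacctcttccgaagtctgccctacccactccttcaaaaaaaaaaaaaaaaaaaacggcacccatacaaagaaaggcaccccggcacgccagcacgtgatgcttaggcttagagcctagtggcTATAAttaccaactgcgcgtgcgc
Bnc1: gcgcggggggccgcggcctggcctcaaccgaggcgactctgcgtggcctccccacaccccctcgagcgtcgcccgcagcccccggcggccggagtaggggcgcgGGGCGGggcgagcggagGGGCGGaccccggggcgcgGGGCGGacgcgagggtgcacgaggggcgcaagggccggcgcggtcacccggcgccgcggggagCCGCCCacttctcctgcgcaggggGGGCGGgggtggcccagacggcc

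The window of Mbd3l2 held 0 CpG dinucleotides, 1 TATAA beginning 20 bases before the start and 1 TAATTG, which lies on the other strand 93 bases before it. The window of Bcas2 held 9 CpG and 1 TATAA beginning 24 bases before the start, and that of Bnc1 held 39 CpG, 5 GC boxes and no TATAA. Of the 9 genes, 8 matched a promoter entry, and Npm2 is named only. In the other 5, namely Smarca4, Trim24, Trim28, Ctcf and Yap1, the main start had between 17 and 44 CpG and between 1 and 3 GC boxes. Over all 32851 mouse promoters of this length the median was 6 CpG, and the shares that held a motif were 22.78% for TATAA, 32.74% for GGGCGG, 33.85% for CCAAT and 7.169% for TAATTG. A match of letters is a description of the sequence and not a bound site.

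The unit throughout is FPKM, a fragment number corrected for transcript length and library size, so levels can be set side by side between genes. Judged by the spacing of the lowest values, FPKM were scaled to an estimated 420700 to 757800 fragments per library, which is approximate. FPKM above 0 were listed for 10670 to 12097 genes. FPKM of a library summed to 498936 ± 64355 in MG, 670216 ± 10778 in MZ and 652537 ± 67110 in WT oocytes (SD, n = 3 each), with the lowest sum, 428329, in MG library 3. All 14 oocyte markers were present, with summed FPKM of 22079 to 38656 in MG, 41008 to 43653 in MZ and 36395 to 42667 in WT oocytes. Their log2 fold change in MG against WT was negative for 12 of 14 (median -0.36). Set against the median of all genes theirs lay at -0.40, and at -0.33 with libraries scaled to the same FPKM sum. That scaling put their own median at 0.034, with 8 positive and 6 negative. It was -0.196 with upper-quartile scaling and -0.295 with the trend on transcript length removed. With quantile normalization it was 0.229, with 9 positive and 4 negative, so its direction depended on the scaling. The part of these markers in the results was not tested. Of 16 granulosa and cumulus markers 5 reached a mean of 1 FPKM, with sums of 22.04 to 39.7 in MG, 23.95 to 28.3 in MZ and 21.6 to 34.3 in WT oocytes, and Foxl2, Amhr2 and Lhcgr were listed at 0 in all 9 libraries. Of 14 markers of theca, stroma, blood and immune cells 6 reached that mean, with sums of 32.6 to 71.4 in MG, 17.8 to 61.8 in MZ and 27.0 to 62.1 in WT oocytes, and Acta2 was listed at 0. Mtor itself had 5.29 ± 0.683 FPKM in MG, 5.20 ± 1.18 in MZ and 3.17 ± 0.200 in WT oocytes (SD, n = 3 each). Every MG and MZ library lay above every WT library, but neither comparison with WT passed (limma adjusted p = 0.360 for MG and 0.803 for MZ). Groups did not overlap, in either direction, for 21.5% of all tested genes in MG against WT and 12.2% in MZ against WT. A whole-gene value can include exons outside a deleted part, so these values do not check the deletion. In such bulk libraries fewer cells of a type and less RNA per cell cannot be told apart.

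Npm2 and Mbd3l2 were the most abundant members. Npm2 ranked first and Mbd3l2 second of the 9 in each of the 9 libraries, and Smarca4 ranked last in each. Bnc1 came nearest to Mbd3l2 in MG libraries 1 and 2, with 56.9 and 56.6 FPKM beside 84.3 and 96.4 for Mbd3l2. In the WT libraries Npm2 lay between the 97.13 and 97.72 percentiles of genes listed above 0, and Mbd3l2 between 95.35 and 96.46. Bcas2, Bnc1, Yap1, Ctcf and Trim24 formed a middle tier that spanned the 65.05 to the 86.06 percentile over the WT libraries. Trim28 lay between 48.34 and 65.97 and Smarca4 between 18.97 and 34.4. Together the 9 genes made up 0.107% to 0.122% of the FPKM sum in MG, 0.111% to 0.115% in MZ and 0.113% to 0.114% in WT libraries. Npm2 and Mbd3l2 carried between 57.2% (MG library 3) and 84.8% (WT library 3) of the members' own sum.

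**Figure D1:**
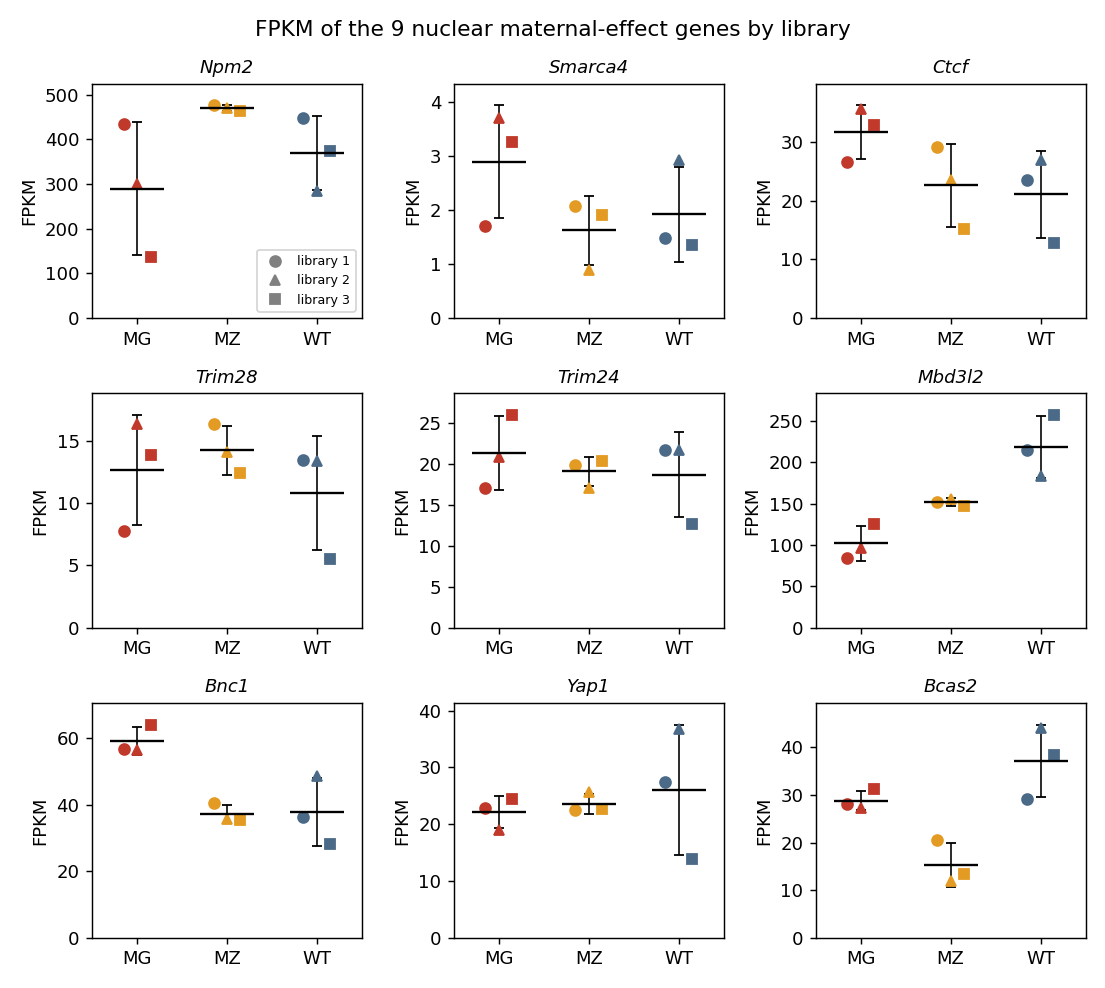
FPKM (vertical axes, each from 0) of the 9 genes in MG, MZ and WT oocytes; points are single libraries, with a marker shape per library number, lines are group means and bars are SDs (n = 3). Mbd3l2 steps up from MG through MZ to WT without overlap, Bcas2 is lowest in the 3 MZ libraries, and Bnc1 is highest in the 3 MG libraries.

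All 9 members passed the filter of at least 1 FPKM in at least 3 libraries and were tested among 10801 genes with limma on log2(FPKM + 1). In MG against WT oocytes 1 of the 9 passed an adjusted p of 0.05, and over all genes 0.343% passed. At an unadjusted p under 0.05 there were 2 of 9 in MG against WT, where 17.7% of all genes were. The libraries of both groups did not overlap for 2 of the 9 in that comparison, against 21.5% of all genes. In MZ against WT oocytes 0 of 9 passed by limma (0.037% of all genes), with 2 of 9 at an unadjusted p under 0.05 (6.3% of all genes) and 1 of 9 at a q under 0.05 in the authors' deposited table. There 3 of 9 did not overlap, against 12.2% of all genes. In MG against MZ oocytes 0 of 9 passed by limma (0.13% of all genes), with 4 of 9 at an unadjusted p under 0.05 (17.6% of all genes), and 4 of 9 did not overlap, against 25.2% of all genes. The authors' deposited table called, by q, 1 of 9 in MG against WT, where it called 4.13% of all genes, and 0.787% of all genes in MZ against WT. For MG against MZ the authors' deposited table called 3 of 9, against 9.05% of all genes. Smarca4 and Trim28 carry the highest possible p and q there in every comparison, which can stand for genes that were not tested. Signs were mixed, with 5 positive and 4 negative in each comparison. The median log2 fold change of the 9 was 0.20 for MG against WT, 0.01 for MZ against WT and 0.14 for MG against MZ, beside 0.04, 0.01 and 0.04 over all genes. The comparisons of MG and of MZ share the WT libraries.

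Mbd3l2 (chromosome 9, 18430654 to 18446316, plus strand, GRCm38, protein coding) was the member that passed. It encodes a relative of the methyl-CpG binding protein Mbd3 that lacks the methyl-CpG binding domain and joins the NuRD repressor complex. Its FPKM was 84.3, 96.4 and 126 in the MG libraries, 152, 156 and 147 in the MZ libraries, and 214, 183 and 257 in the WT libraries. The 3 groups do not overlap, with MG lowest, MZ between and WT highest. Means were 102 ± 21.3 in MG, 152 ± 4.47 in MZ and 218 ± 37.1 in WT oocytes (SD, n = 3 each), so MG reached 0.468 and MZ 0.695 of the WT mean. Mbd3l2 fell in MG against WT by limma (adjusted p = 0.0494), with a log2 fold change of -1.09 and an SE of 0.20, and was lower in 3 of 3 MG libraries than in any WT library. Its log2 fold change in MZ against WT was -0.51 ± 0.20 (limma adjusted p = 0.744), and in MG against MZ it was -0.58 ± 0.20 (limma adjusted p = 0.155), neither of which passed. In the authors' deposited table q was 0.00189 for MG against WT, 0.0935 for MZ against WT and 0.0227 for MG against MZ. The MG call lay close to the threshold and was lost in 17 of 19 alternative fits, over which limma's adjusted p ran from 0.0314 to 0.172 and the log2 fold change from -1.25 to -0.71. With each library rescaled to an FPKM sum of 1000000, MG and MZ overlapped, with 152, 187 and 294 in MG, 224, 231 and 223 in MZ, and 298, 314 and 393 in WT libraries. Both mutants then still lay below every WT library.

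The other repressors of the set are the TIF1 proteins. Trim28 (chromosome 7, 12999114 to 13031035), the co-repressor recruited by KRAB zinc-finger proteins that holds transposons and imprinted regions silent, had 7.76, 16.4 and 13.8 FPKM in MG, 16.3, 14.1 and 12.4 in MZ and 13.4, 13.4 and 5.55 in WT libraries. Trim24 (chromosome 6, 37870811 to 37966296), a relative of Trim28 that binds chromatin and nuclear receptors, had 17.1, 20.9 and 26.1 FPKM in MG, 19.9, 17.1 and 20.3 in MZ and 21.7, 21.7 and 12.7 in WT libraries. The groups overlapped for both genes, and for each the lowest of the 9 values was in WT library 3. The log2 fold changes in MG against WT were 0.24 ± 0.37 for Trim28 (SE; limma adjusted p = 0.777) and 0.20 ± 0.27 for Trim24 (limma adjusted p = 0.741). Without WT library 3 both were negative, at -0.136 and -0.042. The log2 fold change in MZ against WT was 0.45 ± 0.37 for Trim28 and 0.06 ± 0.27 for Trim24 (limma adjusted p = 0.885 and 0.990), and without WT library 3 they were 0.073 and -0.18. Trim28 rested on about 8 to 34 fragments per library.

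Npm2 (chromosome 14, 70647302 to 70659244, minus strand) encodes nucleoplasmin, the histone chaperone that loosens sperm chromatin and organizes nucleoli in the oocyte. Its FPKM was 433, 300.1 and 136 in the MG libraries, 477, 470.04 and 464 in the MZ libraries, and 448, 284 and 374 in the WT libraries. The MZ libraries were tight and all above the WT libraries, while the MG libraries ran from within the WT range to less than any of them. Means were 289.7 ± 149 in MG, 470.1 ± 6.50 in MZ and 369 ± 82.2 in WT oocytes (SD, n = 3 each). No comparison passed: the log2 fold change was -0.47 ± 0.35 in MG against WT (SE; limma adjusted p = 0.515), 0.37 ± 0.35 in MZ against WT (limma adjusted p = 0.893) and -0.85 ± 0.35 in MG against MZ (limma adjusted p = 0.227). In the authors' deposited table q was 0.00771 for MG against MZ. The log2 fold change in MG against MZ was -0.38 without MG library 3, -1.21 without MG library 1 and -0.42 with libraries scaled to the same FPKM sum, where the groups overlapped. The low value in MG library 3 went with low Gdf9 and Zp3 in the same library, at 7327 and 555 FPKM. In MG libraries 1 and 2 Gdf9 had 18400 and 14940 FPKM, and Zp3 had 1402 and 1089. Without MG library 3 the log2 fold change of Npm2 in MG against WT was -0.008.

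Smarca4 and Ctcf shape chromatin on a larger scale. Smarca4 (chromosome 9, 21616169 to 21704230), the ATPase Brg1 of the SWI/SNF remodelling complexes that is needed for activation of the embryonic genome, was the scarcest member, with 1.71, 3.71 and 3.27 FPKM in MG, 2.07, 0.881 and 1.91 in MZ and 1.48, 2.93 and 1.35 in WT libraries. These values rest on about 4 to 16 fragments per library, and the 3 groups overlap. Ctcf (chromosome 8, 105636568 to 105682922), the insulator protein that anchors chromatin loops, had 26.6, 35.6 and 32.8 FPKM in MG, 29.1, 23.6 and 15.1 in MZ and 23.5, 26.9 and 12.8 in WT libraries. MG library 1 lay just below WT library 2, and the other 2 MG libraries lay above all WT libraries. The log2 fold change of Ctcf in MG against WT was 0.62 ± 0.32 (SE; limma adjusted p = 0.348), and that of Smarca4 was 0.42 ± 0.41 (limma adjusted p = 0.643). Without WT library 3 that of Ctcf was 0.31, and with libraries scaled to the same FPKM sum it was 1.00. In MZ against WT they were 0.11 ± 0.32 and -0.15 ± 0.41 (limma adjusted p = 0.973 and 0.971).

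Bnc1 and Yap1 regulate transcription. Bnc1 (chromosome 7, 81966672 to 81992292, minus strand) encodes basonuclin, a zinc-finger factor of oocytes and spermatogonia that acts on ribosomal RNA genes and on genes of RNA polymerase II. Its FPKM was 56.9, 56.6 and 64.1 in the MG libraries, 40.4, 35.7 and 35.5 in the MZ libraries, and 36.4, 48.6 and 28.2 in the WT libraries. All MG libraries lay above all MZ and all WT libraries. MG oocytes averaged 59.2 ± 4.27 FPKM, MZ 37.2 ± 2.79 and WT 37.7 ± 10.3 (SD, n = 3 each), a ratio of 1.57 for MG and 0.986 for MZ to the WT mean. The log2 fold change was 0.67 ± 0.22 in MG against WT (SE; limma adjusted p = 0.160), 0.01 ± 0.22 in MZ against WT (limma adjusted p = 1) and 0.66 ± 0.22 in MG against MZ (limma adjusted p = 0.155), and none passed. In the authors' deposited table q was 0.0579 for MG against WT and 0.0107 for MG against MZ. Yap1 (chromosome 9, 7931999 to 8004596, minus strand), the co-activator that the Hippo kinases hold in the cytoplasm and whose maternal pool supports embryonic genome activation, had 22.9, 19.0 and 24.5 FPKM in MG, 22.5, 25.6 and 22.6 in MZ and 27.4, 36.8 and 13.9 in WT libraries. Its highest and lowest values were both in WT libraries, and its log2 fold change was -0.13 ± 0.31 in MG against WT and -0.04 ± 0.31 in MZ against WT (SE; limma adjusted p = 0.870 and 1). In MG against MZ, Smarca4, Ctcf, Trim24, Yap1 and Trim28 had log2 fold changes of 0.565, 0.51, 0.14, -0.093 and -0.21, and their limma adjusted p ran from 0.444 to 0.918.

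Bcas2 (chromosome 3, 103171655 to 103179166, plus strand) is the splicing member, a core subunit of the PRP19 complex that also serves the DNA damage response in the mouse zygote. Its FPKM was 28.0, 27.3 and 31.2 in the MG libraries, 20.4, 11.9 and 13.4 in the MZ libraries, and 29.1, 44.1 and 38.4 in the WT libraries. Every MZ library lay below every MG and every WT library, and MG overlapped WT. MG oocytes averaged 28.8 ± 2.06 FPKM, MZ 15.3 ± 4.55 and WT 37.2 ± 7.59 (SD, n = 3 each), and the MZ mean was 0.410 of the WT mean. The log2 fold change was -1.25 ± 0.25 in MZ against WT (SE; limma adjusted p = 0.303), which ranked 16 by p among the 10801 genes and did not pass. It was -0.34 ± 0.25 in MG against WT (limma adjusted p = 0.526) and 0.91 ± 0.25 in MG against MZ (limma adjusted p = 0.107). In the authors' deposited table q was 0.0454 for MZ against WT and 0.0532 for MG against MZ. About 10 to 13 fragments stood behind each MZ value and about 21 to 29 behind each WT value.

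**Figure D2:**
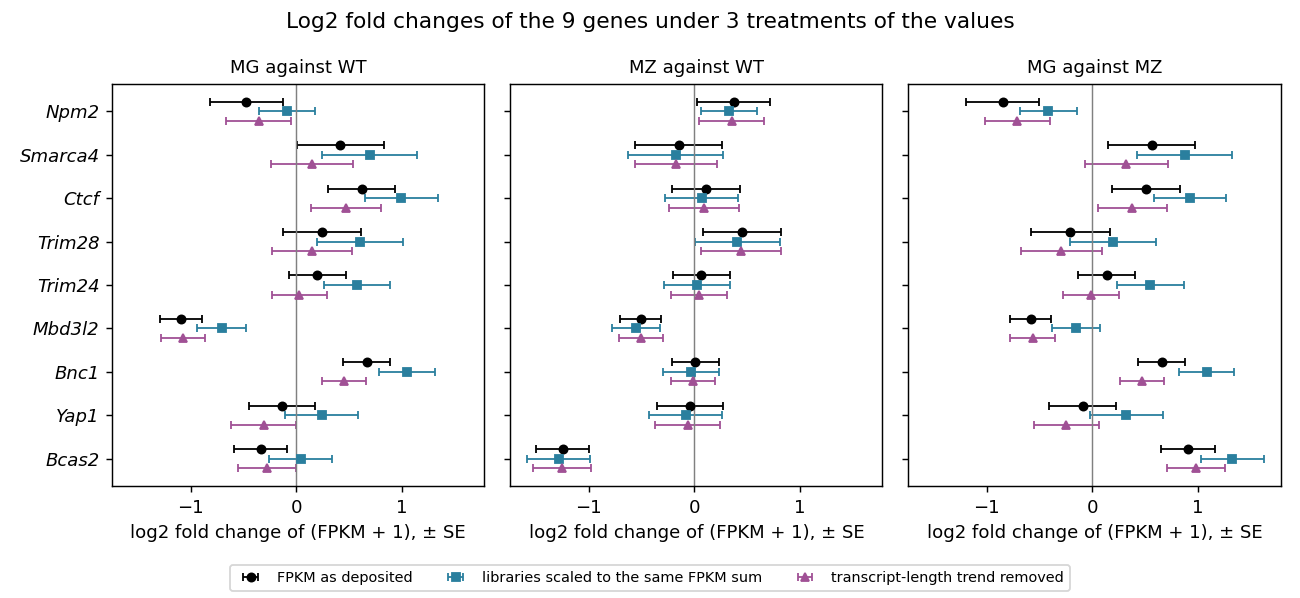
Log2 fold changes of FPKM + 1 (horizontal axes, bars ± SE from limma) of the 9 genes, with a panel for each pair of groups, from the values as deposited (circles), from libraries scaled to the same FPKM sum (squares) and with the trend on transcript length removed (triangles). Mbd3l2 lies at -1.09, -0.71 and -1.07 in MG against WT, and Bcas2 at -1.25, -1.29 and -1.25 in MZ against WT.

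Transcript length moved with the MG group. Genes whose principal transcript is over 4.5 kb had a median log2 fold change of 0.26 in MG against WT (2240 genes), and genes under 1.5 kb had -0.18 (1850 genes). The same medians were 0.02 and 0.00 in MZ against WT. By library, the median of the genes over 4.5 kb against the WT mean was 0.17, 0.23 and 0.37 in MG, 0.03, 0.01 and 0.07 in MZ and 0.00, 0.10 and -0.08 in WT oocytes. Bnc1 (4646 bases) and Smarca4 (6354 bases) fall in the longest class, Trim24, Yap1, Ctcf and Trim28 (3245 to 4115 bases) in the next, and Mbd3l2 (2116 bases), Bcas2 (1467 bases) and Npm2 (997 bases) in the shorter ones. With the trend removed, a fit chosen after seeing the data, the log2 fold change in MG against WT was 0.45 ± 0.21 for Bnc1 (SE; limma adjusted p = 0.302), 0.15 for Smarca4, 0.47 for Ctcf and -1.07 ± 0.21 for Mbd3l2 (limma adjusted p = 0.0542). That of Bcas2 in MZ against WT was -1.25 ± 0.28 (limma adjusted p = 0.349).

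**Figure D3:**
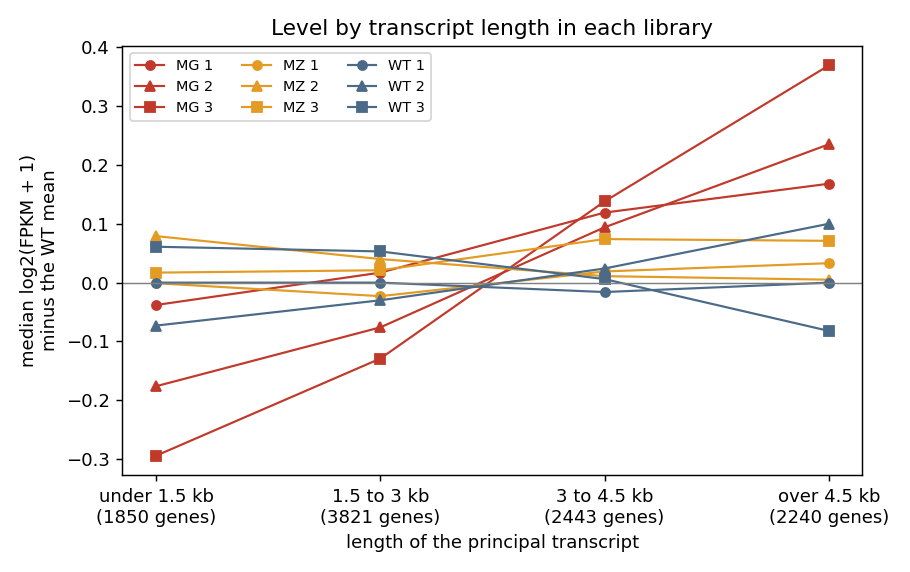
Median log2(FPKM + 1) minus the WT mean (vertical axis) of genes in 4 classes of principal transcript length (horizontal axis), 1 line per library, coloured MG, MZ and WT. In the class over 4.5 kb the MG libraries lie at 0.17, 0.23 and 0.37, above all MZ and WT libraries.

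Scaling moved the MG comparisons as well. With libraries scaled to the same FPKM sum, the median log2 fold change of all genes in MG against WT was 0.36, and set against that median Mbd3l2 lay at -1.07, Bnc1 at 0.69, Ctcf at 0.63 and Npm2 at -0.45. On the scale with an FPKM sum of 1000000, Ctcf no longer overlapped between MG and WT, averaging 64.6 ± 14.9 in MG, 33.6 ± 10.1 in MZ and 32.8 ± 13.3 in WT oocytes (SD, n = 3 each). The share of all genes without overlap was not computed on that scale, so this is not read as particular to Ctcf. Bcas2 averaged 58.8 ± 12.2 on that scale in MG, 22.7 ± 6.57 in MZ and 58.2 ± 17.5 in WT oocytes, still with every MZ library below every WT library.

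Partner genes of the 9 were taken as 8 lists of 168 genes in all. By limma on the deposited values 0 genes of any list passed in any comparison. An unadjusted p under 0.05 was reached in MG against WT by 17.7% of all genes, and among the tested list genes by 6 of 13 genes around Bcas2, 5 of 12 around Ctcf, 5 of 19 around Trim28 and Trim24, 4 of 21 SWI/SNF subunits, 4 of 29 other nuclear maternal-effect genes, 2 of 15 NuRD and methyl-CpG binding proteins, 1 of 14 Hippo genes and 0 of 18 histone chaperones. In MZ against WT, where 6.3% of all genes did, a list held at most 3 such genes, among the 15 NuRD and methyl-CpG binding proteins. In MG against MZ, where 17.6% of all genes did, a list held at most 5. These were 5 of 18 histone chaperones, 5 of 19 around Trim28 and Trim24 and 5 of 29 other nuclear maternal-effect genes. The counts for MG against WT include Cdc5l (around Bcas2), Yy1 (around Ctcf) and Lats2 (the Hippo gene), and so do the medians below. These genes would not have reached the filter without their MG libraries, so their difference is no support for a change of their lists. The other list genes were not checked for this. In MG against WT the partners of Ctcf, which are cohesin subunits, their loaders and other architectural factors, had 10 of 12 tested genes positive and a median log2 fold change of 0.73, or 0.54 with the length trend removed. The Hippo pathway around Yap1 had 13 of 14 positive and a median of 0.48, or 0.34 with the length trend removed. The PRP19 complex around Bcas2 ran the other way, with 10 of 13 negative and a median of -0.41, where 47% of all genes were negative. With libraries scaled to the same FPKM sum, 8 of its 13 genes were negative and its median was -0.025. Set against the median of all genes, the PRP19 median lay at -0.45 as deposited and at -0.39 with that scaling. NuRD and methyl-CpG binding proteins had 11 of 15 positive (median 0.34), the partners of Trim28 and Trim24 13 of 19 (0.28), the SWI/SNF subunits 15 of 21 (0.13) and other nuclear maternal-effect genes 19 of 29 (0.12). With the length trend removed the medians of the SWI/SNF subunits and of the other nuclear maternal-effect genes were -0.08 and -0.06. The histone chaperones were split at 9 and 9 (0.02). In MZ against WT the 8 medians ran from 0.01 to 0.28, beside 0.04 for all genes in MG against WT and 0.01 in MZ against WT.

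**Figure D4:**
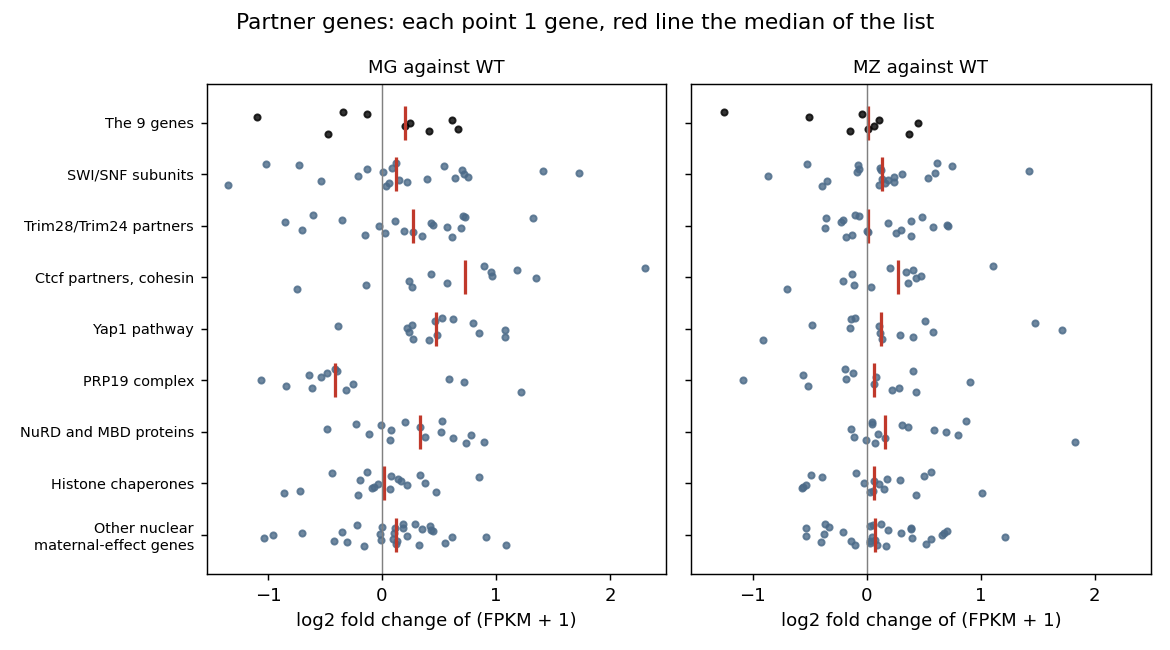
Log2 fold changes of FPKM + 1 (horizontal axes) of the 9 genes and of the tested genes of 8 partner lists in MG against WT and MZ against WT; each point is 1 gene and the red line is the median. In MG against WT the medians run from -0.41 for the PRP19 complex to 0.73 for the partners of Ctcf, and no listed gene outside the 9 passed the test. The points include Yy1, Lats2 and Cdc5l, which would not have reached the filter without their MG libraries.

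The gene with the smallest p of each list in MG against WT is given here as not passing. Smarcb1, the core SWI/SNF subunit, had 21.9, 15.6 and 8.70 FPKM in MG, 40.5, 35.0 and 51.0 in MZ and 45.9, 32.5 and 38.3 in WT libraries, with all MG values below all others (log2 fold change -1.35 ± 0.31 in MG against WT; limma adjusted p = 0.0831). Dnmt3l, the cofactor of de novo DNA methylation in oocytes, averaged 78.8 ± 11.9 FPKM in MG, 122 ± 18.6 in MZ and 144 ± 31.9 in WT oocytes (limma adjusted p = 0.106). Kdm1b, the histone H3K4 demethylase needed for maternal imprints, averaged 116 ± 22.03 in MG, 49.7 ± 5.15 in MZ and 55.4 ± 18.8 in WT oocytes (limma adjusted p = 0.0910). It passed in MG against WT and in MG against MZ with libraries scaled to the same FPKM sum, where the median of all genes was 0.362 and 0.395. It did not pass with upper-quartile scaling, quantile normalization or the length trend removed. Rbbp7, a histone-binding subunit of NuRD, averaged 582 ± 31.5 in MG, 740.0 ± 38.0 in MZ and 818 ± 115 in WT oocytes (limma adjusted p = 0.168). Its MG libraries lay below all WT libraries, which held for 1068 of the 10801 tested genes, while 11 of 15 genes of its list were positive. H1foo, the oocyte linker histone, averaged 6981 ± 1173 in MG, 8794 ± 700.2 in MZ and 9396 ± 1079 in WT oocytes (limma adjusted p = 0.293).

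The remaining leading genes were under 1 FPKM in every WT library, and none would have reached the filter of 1 FPKM in 3 libraries without its MG libraries. Lats2 reached it with 2 MG libraries and 1 MZ library. A difference was therefore built into the testing of these genes. Yy1, a zinc-finger factor that bridges enhancers and promoters, had 4.12, 8.75 and 8.06 FPKM in MG, 0, 0.661 and 2.46 in MZ and 0.891, 0.976 and 0 in WT libraries (log2 fold change 2.31 ± 0.53 in MG against WT; limma adjusted p = 0.0831). Lats2, the Hippo kinase that phosphorylates Yap1, averaged 2.04 ± 1.27 in MG, 0.809 ± 0.240 in MZ and 0.402 ± 0.420 in WT oocytes (limma adjusted p = 0.238). Cdc5l, the PRP19 subunit that works beside Bcas2, averaged 1.92 ± 0.973 in MG, 0.628 ± 0.140 in MZ and 0.252 ± 0.437 in WT oocytes (limma adjusted p = 0.174).

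Across the 9 libraries, which differ in estimated depth and in the length trend, some members moved together. As a description, Pearson's r of log2(FPKM + 1) was 0.83 for Bnc1 and Ctcf, 0.78 for Trim24 and Trim28 and 0.74 for Smarca4 and Bnc1. Mbd3l2 ran against Bnc1 (-0.79) and Ctcf (-0.62), and Npm2 against Smarca4 (-0.70) and Bnc1 (-0.65). WT library 3 held the lowest WT value of 6 members (Smarca4, Bnc1, Trim24, Trim28, Ctcf and Yap1) and the highest of Mbd3l2. Npm2 had its lowest WT value in WT library 2, where Smarca4 and Bnc1 had their highest. The correlations take in both group differences and spread within groups, and the part of each was not tested.

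Among 4425 genes with a mean of at least 10 FPKM, the profile over the 9 libraries most like that of Npm2 was that of Khdc1b (r = 0.991), followed by Tle6 (r = 0.99), a subunit of the subcortical maternal complex. The nearest to Mbd3l2 were Lipt1 (0.984) and Dnajb4 (0.976), and to Bnc1 Osbpl8 (0.962) and Cenpf (0.959). Trim24 was nearest to Suz12 (0.958), a Polycomb subunit, and Asxl1 (0.955), and Smarca4 to Ect2 (0.953) and Stxbp3b (0.949). Trim28 was nearest to Gm15772 (0.952), Ctcf to Hn1l (0.935) and Ube2q2 (0.924), Yap1 to Htra4 (0.94) and Foxo1 (0.862), and Bcas2 to Cdyl (0.915) and Gng12 (0.907). These are the best of many candidates over 9 points.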

How the data were processed

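RNA from germinal vesicle oocytes of 3 groups (MG, MZ and WT, 3 libraries each) was amplified by Smart-seq2 and made into NEBNext Ultra libraries, per the labels' protocols, and sequenced with paired 150 bp reads. Reads were aligned to mm10 with TopHat2 2.0.13, and the authors computed the deposited FPKM values with Cufflinks 2.2.1, per the submitters' processing notes. The p-values and q-values in the deposited table are the authors', from Cuffdiff. Strand handling is not given in the sources used. No label ties libraries to separate animals, and p-values then measure only the spread between samples, which may be technical.

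The table has 24255 rows, of which 27 with symbols turned into dates were dropped. Loci are from GENCODE M21 (GRCm38), 1-based, and 23105 symbols matched. Genes with at least 1 FPKM in at least 3 libraries (10801) were tested on log2(FPKM + 1), a scale that understates the change of low genes, with limma 3.58.1 in R 4.3.3 (9 libraries in 1 fit, variance trend, 6 residual degrees of freedom, two-sided, Benjamini-Hochberg per comparison, threshold 0.05). The steps were tested on simulated data. Fragment numbers were estimated from low values of 2220 genes with a single transcript of at least 1500 bases: the lowest values lay within 15% of 1 fragment in 78.2% to 86.7% of cases. They multiply FPKM by the length of the principal transcript and are approximate. The members and lists were chosen with earlier results of these data known. Named genes are the 9 members, any list gene that passed or otherwise the list's smallest p in MG against WT, the 2 most similar profiles per member (1 is not reported here), and Mtor, Gdf9 and Zp3. Alternatives changed the pseudocount, filter, scaling, variance model, libraries in the fit and replicate block, left out each library, or removed the trend with transcript length.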

Additional observations from a re-analysis of the deposited data

How the results depend on the processing

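Of 510 refits of the member fold changes, 24 changed sign and 2 had an adjusted p under 0.05, both of Mbd3l2 in MG against WT: without MG library 3 (limma adjusted p = 0.0314) and with a filter of 5 FPKM (limma adjusted p = 0.0410). Smarca4 has no value under that filter. The call is lost when any of the other 8 libraries is left out, and the cause was not tested. Genes called in MG against WT were 37 as reported, and 17 with no filter on low values, 64 (60 higher, 4 lower, against 20 and 17) with libraries scaled to the same FPKM sum, 21 (16 higher, 5 lower) with quantile normalization, 25 (20 higher, 5 lower) with upper-quartile scaling, 5 with only the groups compared in the fit, and 3 to 24 when 1 library was left out. In MZ against WT, 4 genes were called as reported, 2 with a pseudocount of 0.1 and 2 with no filter, 0 with the filter of 5 FPKM, 1 each with equal FPKM sums, quantile normalization and the length trend removed, 7 with no variance trend, and 0 to 6 when 1 library was left out. In MG against MZ, 14 were called as reported, 6 with a pseudocount of 0.1, 9 with no filter, 31 (25 higher, 6 lower, against 8 and 6) with equal FPKM sums, 9 with no variance trend, 73 with only the groups compared, and 0 to 214 when 1 library was left out.

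With equal FPKM sums the sign changed for Yap1 (0.24) and Bcas2 (0.04) in MG against WT, Bnc1 in MZ against WT (-0.032), and Trim28 (0.20) and Yap1 (0.32) in MG against MZ. That scaling moved the median of all genes by 0.32 in MG against WT and 0.35 in MG against MZ, and upper-quartile scaling moved it by 0.13 in MG against WT. With upper-quartile scaling Yap1 changed sign in MG against WT (0.021) and MZ against WT (0.054), and with the length trend removed Bnc1 in MZ against WT (-0.015) and Trim24 in MG against MZ (-0.011) did. Leaving out 1 library gave ranges that span 0: in MG against WT -0.51 to 0.16 for Yap1, -0.042 to 0.34 for Trim24 and -0.14 to 0.54 for Trim28; in MZ against WT -0.18 to 0.21 for Bnc1, -0.20 to 0.36 for Ctcf, -0.285 to 0.087 for Smarca4, -0.18 to 0.19 for Trim24 and -0.42 to 0.25 for Yap1; in MG against MZ -0.012 to 0.28 for Trim24, -0.41 to 0.082 for Trim28 and -0.17 to 0.008 for Yap1. With the replicate number as a block, 13 genes were called in MG against WT, 0 in MZ against WT and 159 in MG against MZ. Libraries of the same number did not deviate together (r -0.07 to 0.07 over 9 pairs), so the numbers were not used as pairs. In 9 of 18 comparisons, each with the 3 libraries of another group, a library was nearest its own number. That share was not tested. At about 4 to 16 fragments Smarca4 is limited by depth.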
